A study of Homo sapiens with 5 samples.

Results

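The knockdown of AUF1 in WI-38, a strain of human diploid fibroblasts from lung, was examined as 1 total RNA library of cells that had received siRNA against AUF1 set against 1 library of cells that had received control siRNA. These are 2 of the 5 libraries of the series. Both cultures were at population doubling level (PDL) 15. Untransfected cells at PDL 15 gave a second reference, since the control siRNA library differed from the others in its make-up, and the libraries of HuR siRNA at PDL 15 and of untransfected cells at PDL 55 are given as values only. All 5 libraries come from this 1 cell strain, and the labels used here name neither the siRNA sequences nor their dose or the time after transfection. FPKM (fragments per kilobase of transcript, normalised for library size) was summed over the annotated transcripts of each gene. Of 44364 genes in the tables, 7346 reached a mean of 5 FPKM over the AUF1 siRNA and control siRNA libraries. Of these, 52 small RNA genes and 311 genes with a transcript of status FAIL were left out, and the remaining 6983 genes were compared, 6086 of them protein coding. RP9, at a mean of 5.001 FPKM, was the protein-coding gene just inside that minimum, and DHRS7B, at 4.999, was just outside it. With 1 library per group there is no measure of the spread between cultures, so no test was made, and every difference is one between libraries.

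AUF1, encoded by HNRNPD, is an RNA-binding protein made as several isoforms by alternative splicing. It binds AU-rich elements, which are stretches of A and U, often with repeated AUUUA pentamers, in the 3' untranslated regions of many short-lived mRNAs. It is best known for promoting the decay of such mRNAs, and for some it has been described to stabilise the mRNA or alter its translation. Targets described elsewhere include mRNAs of cytokines, cell cycle regulators and the telomerase catalytic subunit, and in fibroblasts AUF1 is known in connection with senescence.

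AU-rich pentamers stand in the 3' untranslated regions of genes on both sides of the comparison, and the following windows show this for 4 genes that were lower and 3 that were higher with AUF1 siRNA, and for HNRNPD itself. Each is 30 bases of the longest 3' untranslated region annotated in GENCODE 29, written 5' to 3' as DNA with every ATTTA in capitals.
HNRNPD: tgtagccattaagATTTAtatgaatatttt
CCL2: cagagagtgcactATTTAacttaatgtaca
FGF7: ttgttATTTAagtttatgttATTTAtaaaa
XPOT: aaaagaATTTAaaatcccaATTTAttttct
PIK3CA: cgatttcaccATTTAcATTTAttttcaaaa
FST: gacttgtagacATTTATTTAtactgtgtca
GDF15: ctgtATTTAtataagtctgttATTTAttat
CDKN1A: tatttgtgttttaATTTAaacacctcctca
The whole 3' untranslated regions hold 2 pentamers in HNRNPD, 1 in CCL2, 26 in FGF7, 12 in XPOT and 28 in PIK3CA, which were lower. They hold 10 in FST, 5 in GDF15 and 3 in CDKN1A, which were higher. A pentamer is a description of the sequence and does not show that AUF1 binds there.

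HNRNPD (ENSG00000138668, hg19 chromosome 4, 83273651 to 83295656) was at 20.3 FPKM with AUF1 siRNA, with deposited 95% bounds of 16.7 to 24.0. It was at 61.2 FPKM with control siRNA (48.0 to 74.4) and at 119 FPKM in untransfected cells at PDL 15 (109 to 129). In bulk RNA such as this, fewer cells of a type and less RNA per cell cannot be told apart. The AUF1 siRNA library thus had the lowest of the 5 values, and HuR siRNA at 120.3 FPKM and PDL 55 at 42.3 FPKM were both above it. On the scale used from here on, log2((FPKM + 1)/(FPKM + 1)) relative to the median gene compared, the ratio to control siRNA was -1.84 and that to PDL 15 was -2.33. Of 15 annotated HNRNPD transcripts, 5 were above 0 in any library, and the level was shared among them differently in each. ENST00000307213 was at 6.94 FPKM with AUF1 siRNA, 23.4 with control siRNA and 38.8 at PDL 15. ENST00000509263 was at 9.90, 17.7 and 52.3 FPKM in the same order. The nonsense-mediated decay transcript ENST00000513584 was listed at 0 with AUF1 siRNA, beside 11.5 FPKM with control siRNA and 13.7 at PDL 15.

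The closest relatives of AUF1 among RNA-binding proteins were not lower to that extent. HNRNPAB, which shares the domain layout of AUF1, was at 26.5 FPKM with AUF1 siRNA, 28.2 with control siRNA and 35.7 at PDL 15. HNRNPDL was at 74.7, 56.3 and 113 FPKM in the same order, with ratios of 0.10 and -0.42. The splicing factor HNRNPA1 had ratios of -0.17 against control siRNA and -0.82 against PDL 15, HNRNPA2B1 of -0.41 and -0.996, and HNRNPA3 of 0.50 and -0.45. None of these 5 reached a 2-fold difference against control siRNA. HNRNPA0, at 0.452, 3.90 and 2.82 FPKM, lay below the minimum level and was not compared.

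Facts of the libraries bear on every value that follows. Coverage times length over annotated transcripts, which scales with depth, came to 488 megabases with AUF1 siRNA, 603 at PDL 15, then 506 with HuR siRNA and 502 at PDL 55, but to 115 with control siRNA. Annotated transcripts held 19.6% of FPKM times length in the control siRNA library and 71.0 to 74.9% in the other 4. Transcripts assembled from the reads and shorter than 100 nt held 73.9% in the control siRNA library and 4.09 to 8.18% in the others. The deposited bounds were correspondingly wider there, with a median half-width of 26.7% of a gene's FPKM beside 12.3% with AUF1 siRNA and 11.3% at PDL 15. The median log2 ratio of all genes compared was 0.30 for control siRNA and -0.16 for PDL 15 as reference, and these medians were subtracted. The bounds describe the estimate in 1 library and not the spread between cultures.

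Against control siRNA, 636 genes were at least 2-fold higher with AUF1 siRNA, 9.11% of those compared, and 698 were at least 2-fold lower, 10.0%. Against PDL 15 the counts were 802 higher (11.5%) and 612 lower (8.76%). In the same direction against both references were 195 higher genes (2.79%) and 223 lower genes (3.19%). Both ratios contain the AUF1 siRNA library, so the second reference is no replicate of the knockdown. Of these genes, 64 of the higher and 55 of the lower were listed at 0 FPKM in a library. An exact 0 can be a failed estimate or reads given to an assembled transcript, and the genes with the largest ratios were nearly all of this kind. Of the 15 highest genes by the ranking chosen for naming, all 15 were listed at 0 in a library, and of the 15 lowest, 14 were. PARP1, a DNA repair enzyme at 412 FPKM with AUF1 siRNA, was listed at 0 in both references, but with assembled transcripts included its ratio was -0.64. PPIB, a chaperone of the secretory pathway, was listed at 0 with AUF1 siRNA beside 105 FPKM with control siRNA, and its ratio became 0.07. MATR3 and NOLC1, both nuclear proteins, were listed at 0 with AUF1 siRNA with or without assembled transcripts.

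A narrower set was therefore described, by a rule made after these values had been seen. Its genes were above 0 FPKM in the AUF1 siRNA, control siRNA and PDL 15 libraries, had deposited bounds that did not overlap in either comparison, and stayed at least 2-fold apart in the same direction when assembled transcripts were included. It holds 64 higher genes, 0.917% of those compared, and 76 lower genes, 1.09%. Of the higher genes, 44 are protein coding and 7 are pseudogenes. Of the lower genes, 60 are protein coding and 10 are pseudogenes. Some members share sequence or position and are not separate observations: the pseudogene TMSB4XP8 overlaps CCSER1, AC116533.1 overlaps PLEKHA7, AP000763.2 overlaps FAM168A, AP001107.3 overlaps CD248 and IQCG overlaps RPL35A. Strand was not stated for these libraries, so reads of overlapping genes cannot be told apart.

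**Figure D1:**
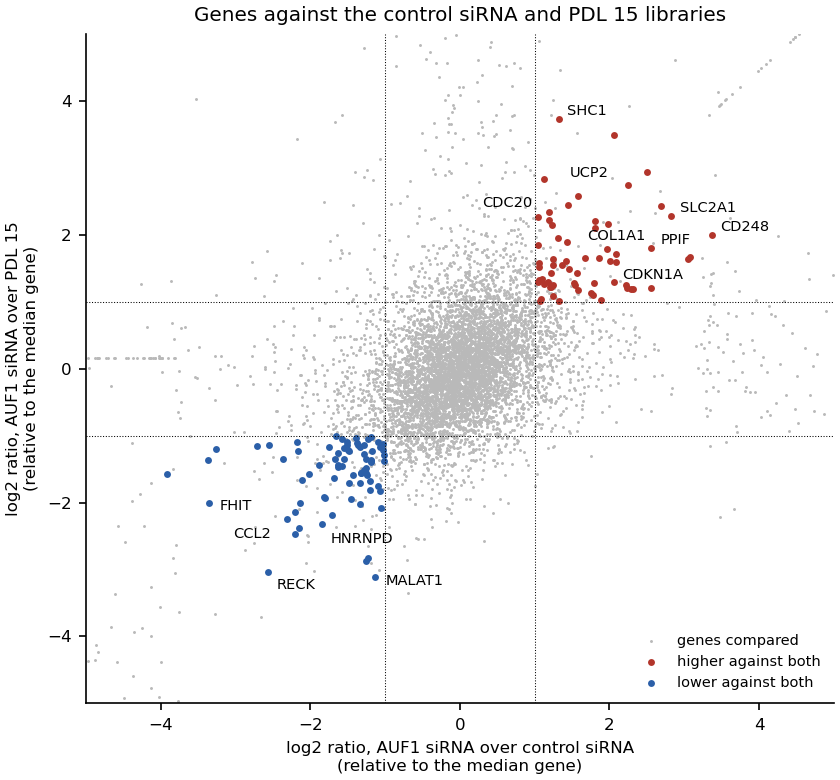
Each point is a gene, with its log2 ratio of AUF1 siRNA over control siRNA on the x axis and over untransfected PDL 15 on the y axis, both relative to the median gene. Red and blue points are the 64 higher and 76 lower genes of the narrower set, dotted lines mark 2-fold, and 104 genes outside the axes, 2 of them in that set, are not drawn.

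The higher genes described here were chosen after their values were seen. CDKN1A, the cyclin-dependent kinase inhibitor p21, was at 392 FPKM with AUF1 siRNA, 74.2 with control siRNA, 145 at PDL 15, 190 with HuR siRNA, and 351 in cells of PDL 55. Its level was highest with AUF1 siRNA, with PDL 55 next, and the ratios were 2.09 against control siRNA and 1.59 against PDL 15. GDF15, a stress-induced cytokine, was at 17.1 FPKM with AUF1 siRNA, 3.04 with control siRNA, 5.46 at PDL 15, then 20.2 with HuR siRNA and 7.01 at PDL 55. The 2 knockdown libraries were the high ones for GDF15. Of 38 mitosis genes compared, 2 were in the narrower higher set. CDC20, the activator of the anaphase-promoting complex, was at 70.2 FPKM, beside 24.5 with control siRNA and 14.7 at PDL 15. The other was FOXM1, a transcription factor of mitotic genes, which was at 30.6 FPKM, beside 7.82 and 13.8. At PDL 55 they were at 0.698 and 0.310 FPKM.

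UCP2, a carrier of the inner mitochondrial membrane, was at 104 FPKM with AUF1 siRNA and between 12.6 and 17.0 FPKM in the other 4 libraries (17.0 with control siRNA, 16.7 at PDL 15, then 12.6 with HuR siRNA and 13.3 at PDL 55). The ratios were 2.25 and 2.74, and no other library came near the AUF1 siRNA level. PPIF, the mitochondrial cyclophilin that regulates the permeability pore, was at 49.5 FPKM, beside 6.02 with control siRNA, 15.3 at PDL 15, then 32.7 with HuR siRNA and 19.4 at PDL 55. SLC2A1, the glucose transporter GLUT1, was at 102 FPKM with AUF1 siRNA, 10.8 with control siRNA, 22.7 at PDL 15, then 57.0 with HuR siRNA and 29.4 at PDL 55. Its ratios were 2.83 and 2.28, and AUF1 siRNA was again the highest library.

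Other transporters and biosynthetic enzymes among the higher genes are given next. They were picked for lying above both references, so that order is not a finding. SLC3A2, the heavy chain of amino acid exchangers, was at 112 FPKM, beside 17.5 with control siRNA and 54.5 at PDL 15, but HuR siRNA had 114. The creatine transporter SLC6A8 was at 11.6 FPKM, beside 1.91 and 2.29. CAD, the enzyme that starts pyrimidine synthesis, was at 64.9 FPKM, beside 5.37 and 22.2. DTYMK, thymidylate kinase, was at 50.9 FPKM, beside 17.1 and 24.0. TCIRG1, a subunit of the vacuolar proton pump, was at 30.3 FPKM, beside 5.53 and 9.16, and CYC1, cytochrome c1 of the respiratory chain, at 20.2 FPKM, beside 2.67 and 9.35.

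Secreted, surface and signalling proteins were also among the higher genes. COL1A1, the alpha 1 chain of type I collagen, was at 4959 FPKM with AUF1 siRNA, 945 with control siRNA and 1702 at PDL 15, and was listed at 0 with HuR siRNA. FST, follistatin, an inhibitor of activin, was at 84.5 FPKM, beside 15.6 with control siRNA and 38.1 at PDL 15, with 39.8 with HuR siRNA and 38.5 at PDL 55. CD248, a surface protein of mesenchymal cells, was at 221 FPKM, beside 16.5 and 61.6, but HuR siRNA was higher still at 288 and the deposited bounds at PDL 15 ran from 0 to 103. The adaptor SHC1 was at 202 FPKM, beside 65.1 and 16.2, and HuR siRNA again was higher at 238. IRAK1, a kinase of interleukin-1 and Toll-like receptor signalling, was at 57.6 FPKM, beside 12.7 and 26.0. CLDN11, a claudin of tight junctions, was at 152 FPKM, beside 24.5 and 74.1, with 136 in the HuR siRNA library. Thus for CD248, SHC1, CLDN11, SLC3A2 and GDF15 the HuR siRNA library lay near or above the AUF1 siRNA library, and for UCP2, CDC20 and FST it lay near the references.

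**Figure D2:**
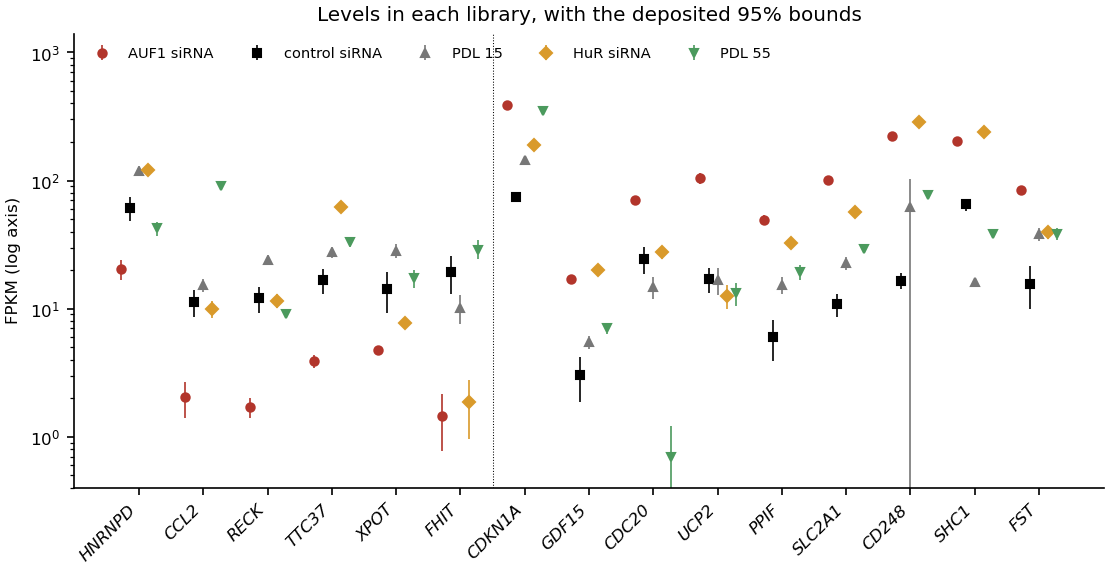
FPKM in each of the 5 libraries on a log axis for 6 lower genes (left of the dotted line) and 9 higher genes, with vertical lines for the deposited 95% bounds of each library. AUF1 siRNA is the lowest library for all 6 genes on the left, and UCP2 is at 104 FPKM with AUF1 siRNA and at no more than 17.0 FPKM elsewhere.

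On the lower side, 9 of the 76 genes of the narrower set encode cytosolic ribosomal proteins, beside 70 of all 6983 genes compared. These 9 are described further below. Other lower genes are given first, and their choice fixed that they lie below control siRNA and PDL 15. CCL2, a chemokine that attracts monocytes, was at 2.04 FPKM with AUF1 siRNA, 11.3 with control siRNA, 15.2 at PDL 15, then 9.99 with HuR siRNA and 90.3 at PDL 55. The ratios were -2.32 and -2.25, and AUF1 siRNA was the lowest library. RECK, an inhibitor of matrix metalloproteinases, was at 1.71 FPKM, beside 12.0 with control siRNA and 24.1 at PDL 15. With assembled transcripts its ratios came down from -2.56 and -3.04 to -1.23 and -1.35. FHIT, a tumour suppressor gene at a fragile site, was at 1.46 FPKM, beside 19.4 and 10.1, but HuR siRNA was also low at 1.85. XPOT, the export receptor of tRNA, was at 4.75 FPKM, beside 14.3 with control siRNA and 28.2 at PDL 15.

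RNA turnover and signalling genes were among the others. TTC37, a subunit of the Ski complex that feeds the cytoplasmic exosome, was at 3.88 FPKM, beside 16.7 with control siRNA, 27.6 at PDL 15, then 62.6 with HuR siRNA and 33.0 at PDL 55. With assembled transcripts its ratios came down from -2.16 and -2.38 to -1.02 and -1.13. MTREX, the helicase of the nuclear exosome, was at 10.4 FPKM, beside 26.6 and 34.1. The kinase ROCK1, which acts on actomyosin contraction, was at 4.16 FPKM, beside 14.6 and 14.7. PIK3CA, the catalytic subunit of a phosphoinositide 3-kinase, was at 19.997 FPKM, beside 38.1 and 60.5, and HuR siRNA was close at 24.4. FGF7, a growth factor that fibroblasts secrete for epithelial cells, was at 4.66 FPKM, beside 8.64 and 13.3. BDKRB1, the B1 receptor of bradykinin, was at 3.45 FPKM, beside 8.11 and 19.4. MALAT1, a nuclear long noncoding RNA, was at 142 FPKM with AUF1 siRNA and 255.6 with control siRNA, but at 1391 at PDL 15, so both siRNA libraries lay far below PDL 15.

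Ribosomal protein mRNAs, which encode the protein part of the ribosome, stood on both sides of control siRNA. Of 78 cytosolic ribosomal protein genes, 70 were compared. Against control siRNA, 14 lay lower by at least 2-fold and 8 higher, for a median of -0.04, and with assembled transcripts 15 lay lower and 3 higher. Against PDL 15, 33 were lower and 3 higher, with a median of -0.88. Over all genes compared, 10.0% were lower against control siRNA and 8.76% against PDL 15. In the same direction against both were 10 lower genes and 1 higher gene, beside 3.19% and 2.79% of all genes compared. The higher gene, RPS19, was listed at 0 at PDL 15. Of the 10, 9 belong to the narrower set, among them RPL26, RPL29, RPL32, RPL34, RPL35A, RPL37, RPL38 and RPS7. The tenth, RPS21, had ratios of -2.74 and -2.36 that became -0.35 and 0.07 with assembled transcripts.

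The 9 genes lay lower with AUF1 siRNA than in any of the other 4 libraries. Their choice fixed this for control siRNA and PDL 15, so only the HuR siRNA and PDL 55 values add to it. RPL29 was at 18.2 FPKM with AUF1 siRNA, 54.1 with control siRNA, 80.3 at PDL 15, then 50.2 with HuR siRNA and 42.6 at PDL 55. RPL34 was at 20.5 FPKM with AUF1 siRNA, 60.4 with control siRNA, 90.7 at PDL 15, then 75.4 with HuR siRNA and 55.4 at PDL 55. RPL37, the most abundant of the 9, was at 89.8, 168, 323, 261 and 217 FPKM in the same order. Others of the family went the other way against control siRNA. RPL4 was at 365 FPKM with AUF1 siRNA, 94.6 with control siRNA and 623 at PDL 15, so it lay between the references. The control siRNA library was itself below PDL 15 for most of the family, so the lower median against PDL 15 does not set AUF1 siRNA apart from control siRNA.

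Ribosomal protein mRNAs typically start with a run of pyrimidines, the feature through which their translation is regulated, and the starts below show it for genes that were lower against both references and for 2 that were higher against control siRNA. Each window runs from 20 bases before to 20 after the RefSeq start in GRCh38.p14, on the strand of the gene, 5' to 3'. In capitals is the longest run of C and T that begins with C within 5 bases of the start. The start itself counts as the first of the 5 bases upstream. A run can therefore reach further upstream than its capitals, as in RPL29.
RPL29: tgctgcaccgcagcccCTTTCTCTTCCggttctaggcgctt
RPL34: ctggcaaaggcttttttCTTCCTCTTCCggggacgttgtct
RPL26: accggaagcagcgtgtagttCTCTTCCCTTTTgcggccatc
RPL35A: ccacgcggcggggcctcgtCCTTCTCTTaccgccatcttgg
RPL4: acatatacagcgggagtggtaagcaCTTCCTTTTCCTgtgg
RPS16: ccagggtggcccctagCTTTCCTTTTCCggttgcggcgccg
A run of at least 5 such bases was found at 45 of the 54 ribosomal protein genes with a start, or 83.3%, beside 17.9% of the other genes compared and 16.8% of all 27305 genes with a start. Ribosomal protein genes with a run had median ratios of -0.08 against control siRNA and -0.92 against PDL 15, and the 9 without a run had -0.02 and -0.76. Lower against both references were 8 ribosomal protein genes with a run, RPS21 among them, and 0 of the 9 without. Among the other genes compared, 30 of 890 with a run and 107 of 4090 without one were lower against both. With only 9 genes, a count of 0 says little. LARP1, a protein that binds these starts and controls their translation and stability, was itself higher, at 150 FPKM with AUF1 siRNA, 37.5 with control siRNA and 52.8 at PDL 15, with 140 in the HuR siRNA library. Short transcripts were more often lower against control siRNA in general. Among genes whose leading transcript lay in the shortest quintile, of at most 504 nt, 15.2% were lower, beside 7.80% in the longest quintile, and the part of length in the ribosomal values was not tested.

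**Figure D3:**
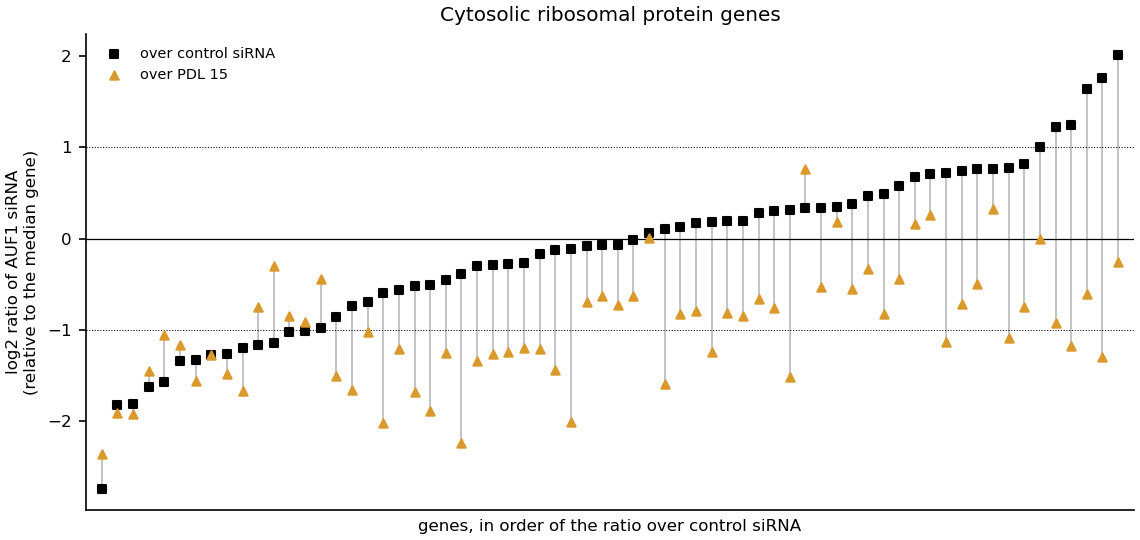
Log2 ratio of AUF1 siRNA over control siRNA (squares) and over PDL 15 (triangles), relative to the median gene, for the 66 ribosomal protein genes above 0 FPKM in these 3 libraries, in order of the first ratio. Dotted lines mark 2-fold, and the triangles lie below the squares for most genes.

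The gene lists that follow were read beside all genes compared, whose median ratio is 0 by construction and of which 9.11% were higher and 10.0% lower against control siRNA, and 11.5% and 8.76% against PDL 15. Lists are small, so 1 gene moves a share by several percentage points. Genes described elsewhere as AUF1 targets did not all differ in 1 direction. Of 42 on the list, 19 were compared; against control siRNA 3 lay higher by at least 2-fold and 0 lower, for a median of 0.39, and against PDL 15 8 were higher and 1 lower, with a median of 0.59. Without the 2 members listed at 0 in a library the medians were 0.08 and 0.51. With assembled transcripts 1 was higher and 1 lower against control siRNA, and the medians were 0.046 and 0.38. CDKN1A was the member in the narrower set. PLAU, the urokinase protease, was at 48.6 FPKM with AUF1 siRNA, 8.28 with control siRNA and 11.2 at PDL 15, but with assembled transcripts its ratios became 0.06 and -0.87. MYC, the transcription factor, was at 14.2 FPKM, beside 10.7 and 10.3, and JUN at 13.3 FPKM, beside 14.6 and 9.08. GADD45A, a growth arrest gene, was at 31.6 FPKM, beside 18.9 and 25.5, and VEGFA at 16.3 FPKM, beside 13.2 and 23.7. The kinase inhibitor CDKN1B was at 10.1 FPKM, beside 15.7 and 23.3, and TWIST1 at 12.3 FPKM, beside 12.9 and 29.2. SERPINB2, an inhibitor of plasminogen activators, was at 19.9 FPKM, beside 10.1 and 1.76, so it stood further from PDL 15 than from control siRNA.

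Proteins that act on the same mRNAs were counted next. Of 17 other AU-rich element binding proteins compared, 4 were at least 2-fold higher than with control siRNA and 0 lower, and 1 was higher and 1 lower than at PDL 15, with medians of 0.30 and -0.12. With assembled transcripts 2 were higher and 1 lower against control siRNA, and the medians were 0.21 and 0.017. ELAVL1, the gene of HuR, was at 17.7 FPKM with AUF1 siRNA, 11.8 with control siRNA and 16.7 at PDL 15. IGF2BP3, an mRNA-binding protein of fetal tissues, was at 134 FPKM, beside 9.50 with control siRNA and 92.1 at PDL 15, so the control siRNA library was the low one. ZFP36, the decay factor tristetraprolin, was at 11.8 FPKM, beside 11.7 and 7.04. Among 30 deadenylation, decapping and decay enzymes, 2 were higher and 3 lower against control siRNA, with a median of -0.07, and 3 were higher and 1 lower against PDL 15, with a median of -0.14. With assembled transcripts 0 were higher and 4 lower against control siRNA. TTC37 alone was lower against both, with ratios of -2.16 and -2.38 that became -1.02 and -1.13 with assembled transcripts. EXOSC4, an exosome subunit, was at 15.3 FPKM, beside 2.37 and 8.84, but its ratio against control siRNA of 1.97 became 0.30 with assembled transcripts. XRN1, the cytoplasmic exonuclease, was at 19.7 FPKM, beside 14.8 and 30.3.

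Cell cycle lists were not uniform. Of 19 p53 targets compared, 3 were at least 2-fold higher and 0 lower against control siRNA, with a median of 0.35, and 4 were higher and 1 lower against PDL 15, with a median of 0.46 that became 0.066 with assembled transcripts. CDKN1A and GDF15 were the 2 that were higher against both. BAX, which promotes apoptosis, was at 17.0 FPKM, beside 21.7 with control siRNA and 8.43 at PDL 15, and CCNG1, cyclin G1, at 41.8 FPKM, beside 62.2 and 105. Of 38 mitosis genes, 5 were higher and 4 lower against control siRNA, and 9 were higher and 0 lower against PDL 15, with medians of 0.20 and 0.48. PTTG1, the separase inhibitor securin, was at 38.0 FPKM with AUF1 siRNA, 110 with control siRNA and 21.1 at PDL 15. UBE2C, a ubiquitin-conjugating enzyme of mitosis, was at 20.1 FPKM, beside 62.3 and 13.3, so the control siRNA library was high for both. The kinesin KIF20A was at 89.96 FPKM, beside 43.2 and 20.8. Of 21 S phase genes, 0 were higher and 2 lower against control siRNA, and 2 were higher and 1 lower against PDL 15. The ribonucleotide reductase subunit RRM2 was at 46.7 FPKM, beside 23.5 and 36.2.

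Extracellular matrix genes were more often higher than lower against control siRNA, and about as often higher as lower against PDL 15. Of 46 matrix genes compared, 11 were at least 2-fold higher and 1 lower against control siRNA, with a median of 0.51, whereas against PDL 15 6 were higher and 7 lower, with a median of -0.05. COL1A2, the partner chain of COL1A1, was at 1112 FPKM with AUF1 siRNA, 198 with control siRNA and 816 at PDL 15. COL4A2, a basement membrane collagen, was at 154 FPKM, beside 58.1 and 69.9, and HuR siRNA had 259. COL7A1, the anchoring fibril collagen, was at 10.9 FPKM, beside 1.89 and 5.09. DCN, decorin, was at 47.7 FPKM, beside 58.5 with control siRNA and 314 at PDL 15, and POSTN, periostin, at 12.6 FPKM, beside 16.9 and 155. For DCN and POSTN both siRNA libraries were low. Of 28 contractile and cytoskeletal genes, 8 were higher and 0 lower against control siRNA, and 6 were higher and 2 lower against PDL 15, with medians of 0.59 and 0.18. With assembled transcripts 3 were higher and 3 lower against control siRNA, and the medians were 0.38 and -0.023. MYL6 and TPM4 were listed at 0 with control siRNA. PFN1, which binds actin monomers, turned from a ratio of 1.48 to -2.71, and PDLIM5 from 3.30 to -2.24. FLNA, an actin crosslinker, was at 346 FPKM, beside 59.7 and 291, with the control siRNA library low.

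Secreted factors associated with senescence stood on both sides. Of 29 compared, 6 were at least 2-fold higher and 3 lower against control siRNA, and 12 were higher and 5 lower against PDL 15, with medians of 0.36 and 0.46. GDF15 was higher, and CCL2 and FGF7 lower, against both within the narrower set. MMP2, a gelatinase, was at 253 FPKM with AUF1 siRNA, 47.3 with control siRNA and 306 at PDL 15. IGFBP7 was at 77.9 FPKM, beside 54.3 and 24.6, and PLAT, the tissue plasminogen activator, at 21.6 FPKM, beside 34.4 and 130. With assembled transcripts 6 were higher and 5 lower against control siRNA. The list's median turned to -0.49 with HuR siRNA as the reference.

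Metabolic lists differed from one another. Of 17 mitochondrial carriers and permeability pore genes, 4 were higher and 1 lower against control siRNA, and 3 were higher and 0 lower against PDL 15. UCP2 and PPIF were the 2 in the narrower set, and VDAC2, a channel of the outer membrane, was at 80.7 FPKM, beside 32.2 and 87.8. Of 44 respiratory chain and ATP synthase genes, 3 were higher and 3 lower against control siRNA, and 2 were higher and 3 lower against PDL 15, with medians of -0.01 and -0.29, and with assembled transcripts 2 were higher and 5 lower against control siRNA. Of 21 glycolysis and hypoxia genes, 3 were higher and 2 lower against control siRNA, and 7 were higher and 1 lower against PDL 15, with medians of 0.22 and 0.49. The glycolytic enzyme GAPDH was at 5263 FPKM with AUF1 siRNA, 1426 with control siRNA and 2736 at PDL 15. Of 18 cholesterol genes, 4 were higher and 1 lower against control siRNA, and 2 were higher and 5 lower against PDL 15. With assembled transcripts 2 were higher against control siRNA and 1 against PDL 15. FDPS, farnesyl diphosphate synthase, was at 42.2 FPKM, beside 13.9 with control siRNA and 88.4 at PDL 15, and the oxidase SC5D, at 3.86 FPKM, beside 7.57 and 12.6, was lower than both.

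**Figure D4:**
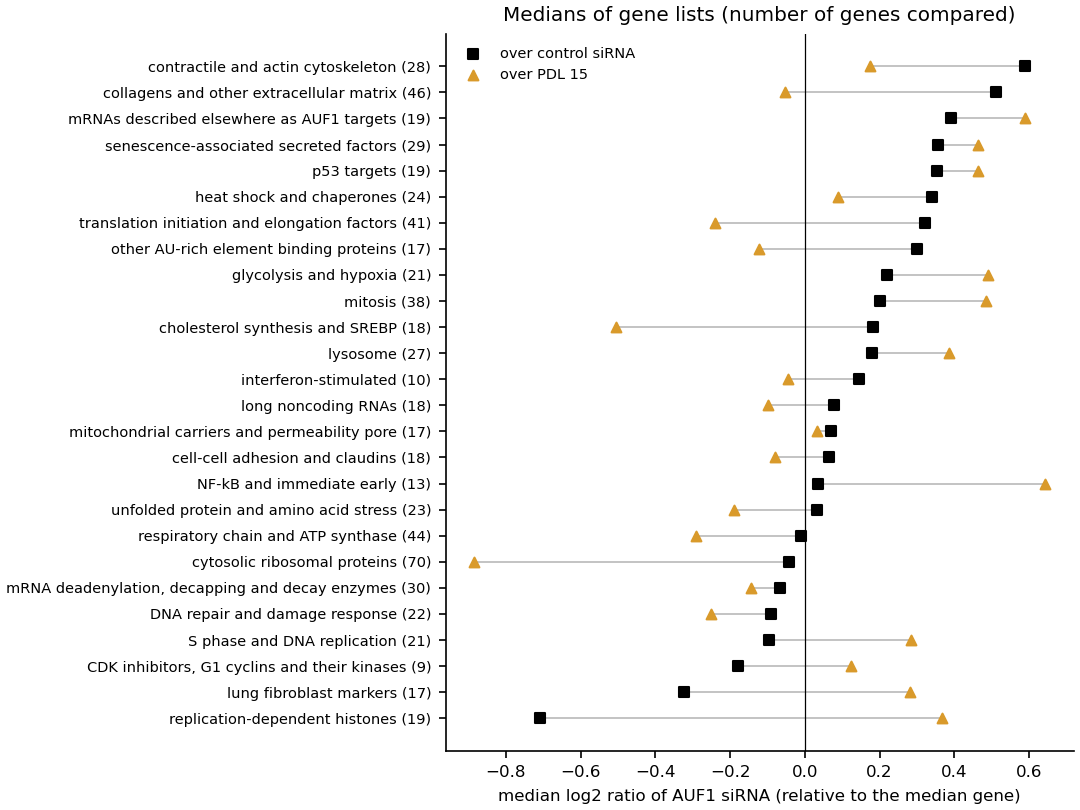
Median log2 ratio of AUF1 siRNA over control siRNA (squares) and over PDL 15 (triangles), relative to the median gene at 0, for the 26 gene lists with at least 9 genes compared, the number of which is in brackets. The contractile list is the highest against control siRNA at 0.59, which is 0.38 with assembled transcripts (not drawn), and the ribosomal protein list the lowest against PDL 15 at -0.88.

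Some genes stood apart from control siRNA alone. CSTB, a protease inhibitor, was at 39.0 FPKM with AUF1 siRNA, 25.7 at PDL 15 and 70.1 with HuR siRNA, but at 1264 with control siRNA. In the other direction, VCP, an ATPase of protein quality control, was at 162 FPKM with AUF1 siRNA, 144 at PDL 15 and 72.1 with HuR siRNA, beside 13.9 with control siRNA. PALLD, an actin-binding protein, was at 113, 66.5 and 129.6 FPKM, beside 11.2. These genes were picked for lying apart from control siRNA but not from PDL 15, so that pattern is not a finding. Only the HuR siRNA values add to it, and for VCP that value lay between control siRNA and PDL 15.

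AU-rich pentamers and base composition went with small differences in the ratios. Among 6025 genes with an annotated 3' untranslated region, the 1408 without an AUUUA pentamer had a median ratio of 0.12 against control siRNA and 0.27 against PDL 15. The 896 genes with 1 pentamer had 0.13 and 0.18, the 1468 with 2 to 4 had 0.03 and 0.01, and the 2253 with 5 or more had -0.09 and -0.19. The ratio of control siRNA over PDL 15 also went with pentamers, from 0.16 without one to -0.08 with 5 or more. Genes rich in pentamers were thus slightly lower with AUF1 siRNA, and relative to PDL 15 also with control siRNA. Their 3' untranslated regions were also longer, with a median of 3245 bases beside 425 without a pentamer. From the shortest to the longest tercile of this length the median ratio went from 0.08 to -0.06 against control siRNA. Within these terciles, in the same order, that ratio was 0.12, 0.15 and -0.01 without a pentamer. The -0.01 rests on 36 genes and became 0.19 with assembled transcripts. With 5 or more pentamers the ratio was -0.02 (46 genes), -0.09 and -0.10. The part of length in the pentamer difference was not tested. The nonamer UUAUUUAUU was present in 565 genes, with medians of -0.05 and -0.08, beside 0.02 and 0.02 in the 5460 without it. Of the narrower set, 18 of 43 higher genes had no pentamer, or 41.9%, as had 6 of 59 lower genes, or 10.2%, and 23.4% of all genes compared. The median number of pentamers was 1, 5 and 3 in these groups.

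GC content followed the same order. The median GC content was 56.5% in the higher genes, 44.6% in the lower genes and 49.1% in all genes compared. From the lowest to the highest quintile of GC content the median ratio went from -0.19 to 0.14 against control siRNA and from -0.34 to 0.49 against PDL 15. The ratio of control siRNA over PDL 15 also went with GC content, from -0.14 to 0.36. Within the lowest tercile of GC content, genes with no pentamer had medians of -0.08 against control siRNA and -0.29 against PDL 15, and genes with 5 or more had -0.15 and -0.32. Within the highest tercile, the values were 0.21 and 0.47 without a pentamer and -0.04 and 0.16 with 5 or more. Within the middle tercile they were 0.06 and 0.04 without a pentamer and -0.04 and -0.13 with 5 or more. The pentamer classes thus lay closer together within the lowest and middle terciles of GC content than over all genes. Within the highest tercile they lay no closer against control siRNA. The part of GC content in their difference was not tested.

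**Figure D5:**
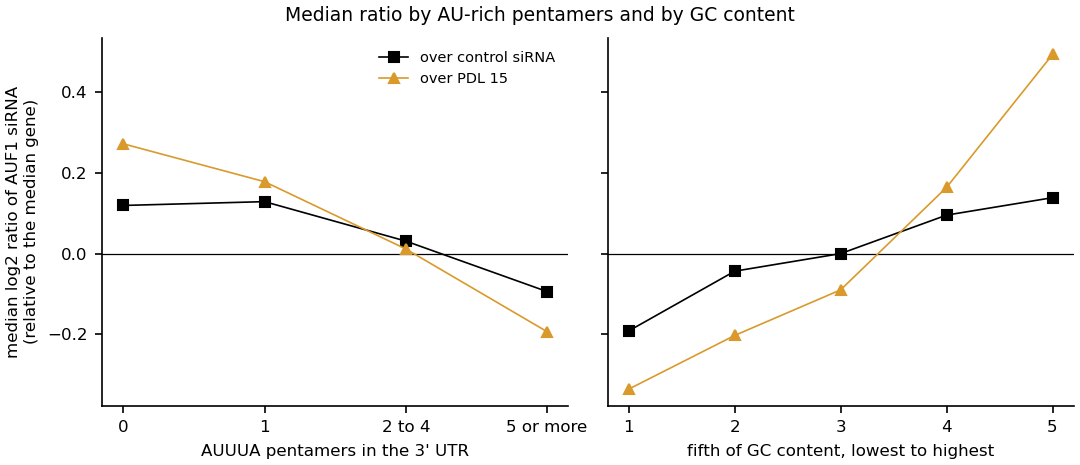
Median log2 ratio of AUF1 siRNA over control siRNA (squares) and over PDL 15 (triangles), relative to the median gene, by number of AUUUA pentamers in the 3' untranslated region (left) and by quintile of GC content (right). Against PDL 15 the median goes from 0.27 without a pentamer to -0.19 with 5 or more, and from -0.34 in the lowest to 0.49 in the highest quintile of GC content. That of control siRNA over PDL 15 (not drawn) goes from 0.16 to -0.08 and from -0.14 to 0.36.

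Markers of the labelled cell type were present. Of 21 lung fibroblast markers, 20 were at 5 FPKM or more with AUF1 siRNA, 16 with control siRNA, where the other 5 were listed at 0, and 19 at PDL 15. Of 11 epithelial markers 2, 1 and 0 reached that level in the same order, of 8 endothelial markers 0, 1 and 1, and of 10 blood cell markers 1, 1 and 0. KRT5, SFTPC and CLDN7 were listed at 0 in all 3 libraries, as were CD14, HBA1 and CD52. The epithelial keratin KRT19 was at 9.24 FPKM with AUF1 siRNA, 0 with control siRNA and 4.75 at PDL 15. KRT18 was at 6.93, 5.17 and 2.38 FPKM. The summed FPKM of the epithelial list was 18.0, 11.2 and 9.55 in AUF1 siRNA, control siRNA and PDL 15. That of the blood list was 16.02, 23.9 and 3.602, of which CD68, a lysosomal protein also made by fibroblasts, held 15.5, 18.5 and 2.80. Of 17 fibroblast markers compared, 3 were at least 2-fold higher and 1 lower against control siRNA. Against PDL 15, 3 were higher and 6 lower, where 11.5% and 8.76% of all genes compared were. With assembled transcripts 2 were higher and 2 lower against control siRNA, and 2 higher and 6 lower against PDL 15. THY1 was listed at 0 at PDL 15 and PDGFRB with control siRNA. Their ratios against PDL 15 of 6.54 and 1.98 became 0.74 and 0.38 with assembled transcripts.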

How the data were processed

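Total RNA of WI-38 cells was amplified with a kit that primes both polyadenylated and other RNA and sequenced on an Illumina instrument, per the labels' protocols. The submitters' processing notes name TopHat2 2.0.6, Cufflinks 2.0.2, Cuffdiff and the human build hg19. For every library the authors deposited a table of FPKM, 95% bounds and coverage for each annotated or assembled transcript, per the file headers. Read counts were not used here, so depth is known only through coverage.

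FPKM was summed over annotated transcripts per gene, and 155045 of 160485 transcripts (96.61%) were assigned to a gene. GENCODE 29 gave the gene for 85.31% of all transcripts and the deposited gene ID for 1.676%. The deposited grouping of transcripts gave it for 7.365%, and position for 2.256%. Ratios were log2((FPKM + 1)/(FPKM + 1)) less the median over genes compared, and 2-fold was the threshold. Bounds of a gene are sums over its transcripts. The steps were tested on simulated data. Python 3.11.15, numpy 2.4.6 and pandas 2.3.3 were used. With 1 library per group no test was possible.

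Genes were named by a rule: HNRNPD and its paralogues, the 15 highest and 15 lowest against both references with bounds apart, 5 each way that differed from control siRNA alone, and up to 4 per list. Since nearly all of the 30 were listed at 0, genes of the narrower set and other list members were named after their values were seen. Members and lists were chosen with earlier results of these data known. Some genes these rules pick are not reported here. Alternatives changed the pseudocount, minimum level, transcript rows, status filter, centring, scaling and reference.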

Additional observations from a re-analysis of the deposited data

How the results depend on the processing

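No paired analysis was possible because each group has 1 library. HNRNPD stayed below every reference, with ratios from -2.35 to -1.54, and had no value without LOWDATA transcripts, which left 2137 genes. Counts higher against control siRNA (636) became 418 with a pseudocount of 5, 1328 and 194 with a minimum mean of 1 and 20 FPKM, 170 without LOWDATA transcripts, 1097 without centring and 1242 after rescaling. Counts lower (698) became 447, 1674, 229, 223 and 460 under the first 5 of these, and 437 with HuR siRNA as reference. Counts higher against both (195) became 122, 354, 67, 44 and 381 after rescaling, and lower (223) became 115, 409, 74 and 71. With HuR siRNA as reference the ratio was -0.23 for CD248, -0.070 for GDF15 and 2.08 for PPEF2. List medians that changed sign were, with PDL 15 as reference, blood markers 2.38, matrix -0.062, fibroblast markers 0.38, AU-rich element binding -0.13, histones 0.46 and translation factors -0.15. With HuR siRNA they were blood markers 0.10, matrix -0.076, heat shock -0.047, fibroblast markers 0.11, AUF1 targets -0.091, histones 1.12 and secreted factors -0.49. Endothelial markers had 0.46 with assembled transcripts, fibroblast markers 0.026 with the highest transcript only, and AUF1 targets -0.31 without LOWDATA transcripts. Apart from settings that compare fewer or more genes, the cause was not tested. The depth of the control siRNA library limits every ratio against it.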

Other observations

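Replication-dependent histone mRNAs, which lack a poly(A) tail, stood on opposite sides of the 2 references. Of 19 compared, 1 was at least 2-fold higher and 8 lower against control siRNA, with a median of -0.71, and 7 were higher and 2 lower against PDL 15, with a median of 0.37. HIST1H2AD was at 3.08 FPKM with AUF1 siRNA, 19.4 with control siRNA and 1.16 at PDL 15, and HIST2H2AC at 28.7, 64.9 and 15.5 FPKM. The narrower higher set also held 2 genes chosen after their values were seen. XPO5, the exporter of microRNA precursors, was at 54.0 FPKM, beside 20.6 and 24.0, and DGCR8, the partner of Drosha, at 23.5 FPKM, beside 8.53 and 8.24.

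Of all genes compared, 9.11% were at least 2-fold higher and 10.0% lower against control siRNA, and 11.5% and 8.76% against PDL 15. Against control siRNA, 6 of 27 lysosome genes were higher and 0 lower, as were 4 and 4 of 22 DNA repair genes, 2 and 2 of 24 heat shock genes, 3 and 1 of 23 unfolded protein and amino acid stress genes, 2 and 1 of 41 translation factors, 3 and 1 of 18 adhesion genes, 3 and 1 of 18 long noncoding RNAs, 2 and 2 of 9 G1 regulators, 1 and 0 of 10 interferon-stimulated genes, 0 and 1 of 13 NF-kB and immediate early genes and 0 and 1 of 4 shelterin and telomerase genes. Against PDL 15 the counts in the same order were 4 and 0, 5 and 3, 3 and 2, 4 and 0, 2 and 5, 4 and 4, 2 and 1, 2 and 1, 1 and 2, 4 and 1, and 0 and 0. With assembled transcripts the counts against control siRNA were 2 and 2 for lysosome genes, 1 and 0 for DNA repair genes, 1 and 2 for adhesion genes and 1 and 3 for long noncoding RNAs. NFKB1 was at 5.11 FPKM, beside 17.8 with control siRNA and 29.3 at PDL 15, and its ratio against control siRNA of -1.92 became -0.83 with assembled transcripts. The cell adhesion gene OPCML was at 1.73 FPKM, beside 13.6 and 5.83.

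Chromosome 11 held 15 of the 64 higher genes of the narrower set, beside 446 of the genes compared, or 6.39%. UCP2 and CD248 are among them. These 15 include 7 genes known only by a clone name and 2 overlapping pairs, so they are not 15 separate observations. The median ratio of its genes was 0.14 with control siRNA and 0.22 with PDL 15 as reference, and their median GC content was 52.2%. This was noticed in the data and was not tested.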
